A study of Mus musculus with 15 samples.

Results

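The genes of the tricarboxylic acid (TCA) cycle and of branched-chain amino acid catabolism were followed in mouse hearts. The set was fixed by name and held 37 of 12386 named genes: 18 of the TCA cycle, 3 of the pyruvate dehydrogenase complex and 16 of branched-chain catabolism. For each gene, the FPKM values (fragments scaled to transcript length and to the library's total) of its Ensembl transcripts were summed. All 37 genes passed the filter for testing, and none was at 0 FPKM in any of the 15 libraries. The libraries came from heart tissue of male C57BL/6 mice and formed 3 groups of 5: AngII+QDG hearts from mice given AngII and QDG, AngII hearts from mice given AngII alone by infusion, and Control hearts. AngII is angiotensin II, a hormone peptide that constricts vessels, and QDG is a treatment that the labels name only by this abbreviation. Doses, durations, ages and any infusion of Control mice were not stated. The study asked which genes and pathways differ between these groups.

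The TCA cycle oxidises acetyl-CoA in the mitochondrial matrix and hands its electrons to the respiratory chain. In the heart, which makes most of its ATP this way, acetyl-CoA comes from fatty acids and from pyruvate through the pyruvate dehydrogenase complex. To a lesser extent it comes from the amino acids leucine and isoleucine. The branched-chain amino acids leucine, isoleucine and valine are transaminated and then decarboxylated by the branched-chain ketoacid dehydrogenase complex. Their carbon skeletons enter the cycle as acetyl-CoA or succinyl-CoA.

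Promoters are shown for 3 genes of the pyruvate dehydrogenase complex and for Dld, Sdha and Sucla2. The latter 3 held a motif match and were called higher in AngII+QDG than in Control hearts. Hibadh, Pccb and Sdhd also held a match, were not called there and are not shown. Each window runs from 250 bases before to 50 bases after a RefSeq gene start (GRCm38.p6), in the direction of transcription. Capitals mark matches to GCGCA, then 1 base of any kind, then GCGC, the core letters bound by nuclear respiratory factor 1, a transcription factor of mitochondrial genes, searched on both strands. The windows are Pdha1 at chrX:160138381-160138680 (minus strand), Pdhb at chr14:8172943-8173242 (minus strand), Dlat at chr9:50659731-50660030 (minus strand), Dld at chr12:31351422-31351721 (minus strand), Sdha at chr13:74350191-74350490 (minus strand) and Sucla2 at chr14:73552536-73552835 (plus strand). The RefSeq start used for Sucla2 lies inside the GENCODE gene and not at its 5′ end.
Pdha1: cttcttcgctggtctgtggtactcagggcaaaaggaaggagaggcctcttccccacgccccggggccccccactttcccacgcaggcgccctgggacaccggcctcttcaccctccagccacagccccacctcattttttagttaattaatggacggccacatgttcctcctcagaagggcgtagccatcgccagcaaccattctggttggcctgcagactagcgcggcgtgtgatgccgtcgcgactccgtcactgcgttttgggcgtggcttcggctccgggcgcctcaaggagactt
Pdhb: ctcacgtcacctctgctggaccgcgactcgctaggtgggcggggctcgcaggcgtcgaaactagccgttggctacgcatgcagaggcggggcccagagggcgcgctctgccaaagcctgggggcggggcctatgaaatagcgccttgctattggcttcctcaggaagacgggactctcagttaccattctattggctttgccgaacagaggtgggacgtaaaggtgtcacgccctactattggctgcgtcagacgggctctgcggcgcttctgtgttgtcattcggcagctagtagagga
Dlat: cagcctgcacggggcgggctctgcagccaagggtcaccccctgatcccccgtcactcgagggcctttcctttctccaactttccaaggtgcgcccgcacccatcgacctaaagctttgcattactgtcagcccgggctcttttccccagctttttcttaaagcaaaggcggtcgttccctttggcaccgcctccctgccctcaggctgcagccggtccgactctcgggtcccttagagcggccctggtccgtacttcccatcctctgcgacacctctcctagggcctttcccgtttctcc
Dld: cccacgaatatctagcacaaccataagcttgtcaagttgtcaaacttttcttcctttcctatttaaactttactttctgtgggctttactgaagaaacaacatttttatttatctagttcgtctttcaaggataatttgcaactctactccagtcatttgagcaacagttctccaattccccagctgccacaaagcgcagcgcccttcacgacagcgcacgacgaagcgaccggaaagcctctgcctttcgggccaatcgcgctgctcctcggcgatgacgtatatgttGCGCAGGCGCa
Sdha: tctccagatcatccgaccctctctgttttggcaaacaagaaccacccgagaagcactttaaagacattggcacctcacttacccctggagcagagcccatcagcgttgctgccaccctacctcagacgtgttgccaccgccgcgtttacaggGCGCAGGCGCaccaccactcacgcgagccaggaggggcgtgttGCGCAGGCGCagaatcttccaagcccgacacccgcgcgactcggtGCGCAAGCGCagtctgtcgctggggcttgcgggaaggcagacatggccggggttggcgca
Sucla2: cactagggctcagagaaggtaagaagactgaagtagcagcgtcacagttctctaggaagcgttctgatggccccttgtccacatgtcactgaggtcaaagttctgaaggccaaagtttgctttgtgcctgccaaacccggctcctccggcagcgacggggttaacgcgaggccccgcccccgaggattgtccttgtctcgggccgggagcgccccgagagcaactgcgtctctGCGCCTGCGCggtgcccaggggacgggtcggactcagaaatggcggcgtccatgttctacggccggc
Promoter windows were matched for 33 of the 37 genes. The motif lay in a window of 6 of them, Dld, Hibadh, Pccb, Sdha, Sdhd and Sucla2, which is 6 of their 42 windows, beside 4.6% of all 32851 promoter windows. Counted by gene, 5.19% of 27025 genes held it in any window. Sdha held 3 matches before its start, Sucla2 held 1 before its start, and Dld held 1 after its start. The windows of Pdha1, Pdhb and Dlat held none. TNAAGGTCA, letters of the kind bound by the estrogen-related receptors, searched on both strands, lay in 1 of the 42 windows, that of Sdhd, and in 1.28% of all windows. Neither motif contains the other. A match is a description of letters and says nothing of binding in these hearts.

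The libraries differed in ways that touch every comparison with Control. If the smallest step in FPKM is 1 fragment, depth ran between 51.6 and 78.3 (in units of 1000000 fragments). The balance between 2277 short transcripts (below 1000 nt) and 6255 long ones (3000 nt and above), as a difference of mean log2(FPKM + 1), was 0.64 to 0.89 in AngII+QDG hearts, 0.77 to 0.96 in AngII hearts and 0.98 to 1.40 in Control hearts. Short transcripts thus carried relatively more FPKM in every Control library. Control 5 stood apart: 20.6% of its transcripts were at 0, and for 26 of the 37 genes it was the lowest of the 15 libraries. Its value was a median of 0.68 times the mean of the other 4 Control libraries over the 37 genes, and also 0.68 times over all genes tested. Summed markers of cardiomyocytes (9 of 10 in the tables, with Ttn not used here) were 30083 to 47407 FPKM in AngII+QDG hearts, 34608 to 41761 in AngII hearts and 33383 to 52901 in Control hearts, so the labelled tissue carried its defining markers. Summed markers of fibroblasts (8 of 8) were 231 to 354, 238 to 387 and 201 to 248 FPKM in the same order of groups. Summed markers of blood cells (6 of 8) were 2699 to 9473, 2199 to 9325 and 3795 to 12222 FPKM, those of macrophages (8 of 8) 138 to 189, 127 to 239 and 145 to 239 FPKM, and those of endothelium (8 of 8) 658 to 960, 735 to 1027 and 610 to 915 FPKM. Summed markers of smooth muscle and pericytes (8 of 8) were 188 to 296, 243 to 364 and 148 to 261 FPKM. The part of these differences in the results was not tested. In whole-heart RNA, fewer cells of a type and less RNA per cell cannot be told apart.

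The 37 genes differed widely in level. On the FPKM scale, which is per transcript length, the mean over 15 libraries ran from 845 for Mdh1 and 787 for Idh2 at the top to 10.1 for Acad8 at the bottom. Mdh1 is the cytosolic malate dehydrogenase and Idh2 the NADP-dependent mitochondrial isocitrate dehydrogenase. The 18 TCA cycle genes ran from 31.3 (Suclg2) to 845 FPKM, and the 16 branched-chain genes from 10.1 to 147 FPKM (Bckdha). Every TCA cycle gene except Suclg2, Dlst and Idh3b had a mean above 100 FPKM, while 3 branched-chain genes did, Bckdha, Acat1 and Hibadh. Summed FPKM of the 37 genes was 6429 to 7769 in AngII+QDG hearts, 6960 to 7444 in AngII hearts and 4387 to 7660 in Control hearts. The groups overlapped, and Control 5 gave the lowest sum.

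Between groups, the mean distance between both pathways differed by less than the SD of the AngII+QDG and of the Control libraries. The SD of the AngII libraries was smaller than the difference between AngII and Control. The mean log2(FPKM + 1) of the TCA cycle genes exceeded that of the branched-chain genes by 2.40 ± 0.13 in AngII+QDG hearts, 2.42 ± 0.05 in AngII hearts and 2.34 ± 0.12 in Control hearts (SD, n = 5 each). The ranges overlapped, at 2.24 to 2.58, 2.35 to 2.48 and 2.17 to 2.45. The 3 pyruvate dehydrogenase genes stood differently to the TCA cycle genes: their mean log2 level was 0.10 ± 0.13 higher in AngII+QDG hearts, 0.06 ± 0.14 higher in AngII hearts, and lower in Control hearts, at -0.29 ± 0.12. The AngII+QDG range of -0.07 to 0.26 lay above the Control range of -0.42 to -0.15, and the AngII range of -0.19 to 0.18 overlapped it. No test was made of these means, since the members were chosen with earlier results of these data known.

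In AngII hearts, 7 of the 37 genes rose against Control hearts and none fell (limma, adjusted p under 0.05 over all genes tested). They were the 3 pyruvate dehydrogenase genes of the set (Pdha1, Pdhb and Dlat), the TCA cycle genes Dld and Mdh2, and the valine-pathway genes Hibch and Aldh6a1. A further subunit gene of that complex, Pdhx, was not in the set and was not called. Of all 12262 genes tested, 13.3% were called, 11.9% higher and 1.48% lower in AngII hearts, so the share of TCA cycle genes (2 of 18) and of branched-chain genes (2 of 16) lay near the background. The median log2 change was 0.20 over all genes tested, 0.25 over the TCA cycle genes, 0.18 over the branched-chain genes and 0.61 over the 3 pyruvate dehydrogenase genes. After median scaling of the libraries, which left the median of all genes at -0.06, these medians were -0.01, -0.08 and 0.35, so the sign of the TCA cycle and branched-chain medians turned and that of pyruvate dehydrogenase did not. Quantile normalization left the median of all genes at -0.01 and called 406 genes higher and 413 lower, against 1454 higher and 181 lower without it, and 6 of the 37 genes.

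The pyruvate dehydrogenase complex turns pyruvate into acetyl-CoA. Pdha1 (chrX:160122209-160138413, ENSMUSG00000031299) and Pdhb (chr14:8165996-8173025, ENSMUSG00000021748) encode the 2 subunits of its decarboxylating component. Pdha1 had 388, 336, 331, 301 and 359.7 FPKM in AngII+QDG hearts, 310.5, 366, 278, 314 and 308 in AngII hearts and 197, 209, 217, 294 and 134 in Control hearts. Every AngII+QDG library lay above every Control library, while Control 4 lay inside the AngII range. Against Control, the log2 change of Pdha1 was 0.62 ± 0.16 (SE) in AngII hearts (limma, adjusted p = 0.026) and 0.74 ± 0.16 in AngII+QDG hearts (limma, adjusted p = 0.0073).

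Pdhb had 496, 495, 485, 410.4 and 486 FPKM in AngII+QDG hearts, 481, 494, 414, 477 and 484 in AngII hearts and 326, 349, 367, 455 and 199 in Control hearts. Control 4 was higher than AngII 3 and AngII+QDG 4, the lowest library of each treated group, and the remaining treated libraries lay above all Control libraries. The log2 change of Pdhb was 0.52 ± 0.16 in AngII hearts (limma, adjusted p = 0.049) and 0.53 ± 0.16 in AngII+QDG hearts (limma, adjusted p = 0.034), both against Control.

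Dlat (chr9:50634633-50659780, ENSMUSG00000000168) encodes the acetyltransferase core of the complex. It had 91.3, 79.9, 82.2, 68.9 and 80.99 FPKM in AngII+QDG hearts, 74.4, 87.7, 67.1, 78.5 and 78.3 in AngII hearts and 55.3, 47.5, 51.8, 70.8 and 33.003 in Control hearts. Again Control 4 alone of the Control libraries reached the treated range. Its log2 change was 0.61 ± 0.16 in AngII hearts (limma, adjusted p = 0.027) and 0.67 ± 0.16 in AngII+QDG hearts (limma, adjusted p = 0.011), both against Control. The ratio of Dlat to Pdha1 was 0.235 ± 0.009 in AngII+QDG hearts, 0.245 ± 0.007 in AngII hearts and 0.247 ± 0.020 in Control hearts (SD, n = 5 each). The means differed by less than the Control SD, but those of AngII+QDG and AngII hearts differed by more than the SD of either. All ranges overlapped, at 0.225 to 0.249, 0.239 to 0.254 and 0.228 to 0.280 in the same order of groups.

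Dld (chr12:31331277-31351453, ENSMUSG00000020664) encodes dihydrolipoamide dehydrogenase, the subunit that the pyruvate, 2-oxoglutarate and branched-chain ketoacid dehydrogenase complexes share. It had 165, 159, 153, 145 and 179 FPKM in AngII+QDG hearts, 145, 176, 143, 148 and 152 in AngII hearts and 102, 98.3, 131, 132 and 101 in Control hearts. No AngII or AngII+QDG library was as low as the highest Control library. Its log2 change was 0.44 ± 0.11 in AngII hearts (limma, adjusted p = 0.022) and 0.51 ± 0.11 in AngII+QDG hearts (limma, adjusted p = 0.0064), both against Control. The ranges of AngII and Control libraries did not overlap for 3 of the 37 genes, Dld, Hibch and Aldh6a1, all higher in AngII hearts, where 10.1% of all genes tested lay apart as higher and 1% as lower.

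**Figure D1:**
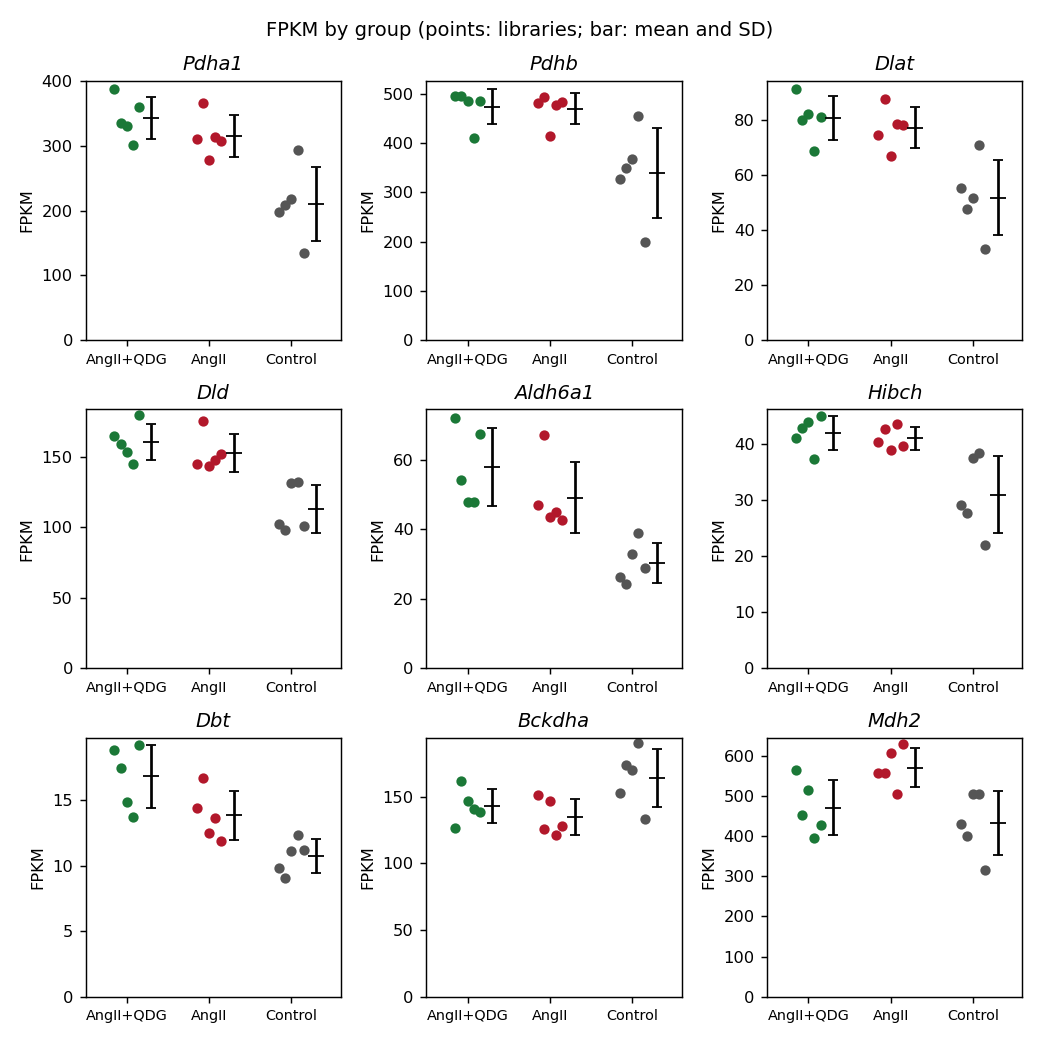
FPKM of 9 genes in each library, with groups on the x axis (AngII+QDG, AngII, Control), 1 point per library, and the mean with its SD (n = 5) beside the points. For Dld and Aldh6a1 every AngII and AngII+QDG point lies above every Control point, and for Bckdha the 5 Control points reach from 133 to 190 FPKM, the widest range of the 3 groups.

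Mdh2 (chr5:135778480-135790398, ENSMUSG00000019179) encodes the mitochondrial malate dehydrogenase, which closes the cycle. It had 563, 453, 515, 396 and 427 FPKM in AngII+QDG hearts, 556, 557, 607, 504 and 628 in AngII hearts and 431, 401, 504, 506 and 316 in Control hearts. The AngII libraries were high, and the lowest of them, AngII 4, lay just under Control 3 and Control 4. The log2 change was 0.42 ± 0.13 in AngII against Control hearts, with a limma adjusted p of 0.05 that sits at the threshold, and 0.13 ± 0.13 in AngII+QDG against Control hearts (limma, adjusted p = 0.505). Between AngII+QDG and AngII hearts it was -0.28 ± 0.13 (limma, unadjusted p = 0.049, adjusted p = 0.998). The ratio of cytosolic Mdh1 to mitochondrial Mdh2 was 1.85 ± 0.28 in AngII+QDG hearts, 1.49 ± 0.13 in AngII hearts and 1.95 ± 0.25 in Control hearts (SD, n = 5 each), with overlapping ranges, and Mdh1 itself had log2 changes of 0.04 in AngII against Control and 0.02 in AngII+QDG against AngII.

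The remaining TCA cycle genes were not called in AngII against Control hearts. Cs, citrate synthase and the entry step, averaged 393 ± 8.97 FPKM in AngII and 317 ± 107 FPKM in Control hearts (SD, n = 5 each; limma log2 change 0.38 ± 0.20, adjusted p = 0.193). Ogdh, the 2-oxoglutarate decarboxylating subunit, averaged 346 ± 7.66 and 264 ± 109 FPKM (limma log2 change 0.50 ± 0.24, adjusted p = 0.161). Both had a Control SD more than 10 times the AngII SD. Sdha, the flavoprotein of succinate dehydrogenase, had a log2 change of 0.41 ± 0.13 (limma, adjusted p = 0.056), while the membrane anchor Sdhc had -0.07 ± 0.12 (limma, adjusted p = 0.732). Fh1, fumarase, had 0.06 ± 0.11 (limma, adjusted p = 0.728).

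In branched-chain catabolism, the 2 of 16 genes that rose in AngII hearts, Aldh6a1 and Hibch, encode valine steps. Their share was near that of all genes, and the branches were not tested against each other. Aldh6a1 (chr12:84430717-84451004, ENSMUSG00000021238) encodes methylmalonate semialdehyde dehydrogenase, the last step of that branch before propionyl-CoA. It had 72.02, 54.02, 47.8, 47.9 and 67.3 FPKM in AngII+QDG hearts, 46.995, 67.2, 43.6, 44.8 and 42.6 in AngII hearts and 26.3, 24.4, 32.96, 38.9 and 28.8 in Control hearts. The highest Control library lay below the lowest library of both treated groups. Its log2 change was 0.68 ± 0.16 in AngII hearts (limma, adjusted p = 0.023) and 0.91 ± 0.16 in AngII+QDG hearts (limma, adjusted p = 0.004), both against Control.

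Hibch (chr1:52844929-52920986, ENSMUSG00000041426) encodes 3-hydroxyisobutyryl-CoA hydrolase, an earlier valine step. It had 41.1, 42.9, 44.02, 37.4 and 44.99 FPKM in AngII+QDG hearts, 40.4, 42.8, 38.9, 43.7 and 39.6 in AngII hearts and 29.2, 27.8, 37.6, 38.5 and 22.1 in Control hearts. AngII and Control libraries did not overlap, by a gap of less than 1 FPKM, and AngII+QDG 4 lay among the Control libraries. Its log2 change was 0.42 ± 0.13 in AngII hearts (limma, adjusted p = 0.047) and 0.45 ± 0.13 in AngII+QDG hearts (limma, adjusted p = 0.026). Hibadh, the dehydrogenase between Hibch and Aldh6a1 in the pathway, was not called in either comparison, with 0.31 ± 0.14 (limma, adjusted p = 0.142) and 0.32 ± 0.14 (limma, adjusted p = 0.11).

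The branched-chain ketoacid dehydrogenase complex, the committed step, had no called subunit in AngII hearts apart from the shared Dld. Bckdha (chr7:25629946-25658981, ENSMUSG00000060376), a subunit of its decarboxylating component, had 126, 162, 147, 141 and 138 FPKM in AngII+QDG hearts, 151, 126, 146, 121 and 128 in AngII hearts and 153, 173, 170.2, 190.4 and 133 in Control hearts. The groups overlapped, with Control 4 the highest and AngII 4 the lowest library. Its log2 change was -0.28 ± 0.11 in AngII hearts (limma, adjusted p = 0.091) and -0.19 ± 0.11 in AngII+QDG hearts (limma, adjusted p = 0.222), not called in either. Without Control 5, or after median scaling, Bckdha passed the threshold as lower in AngII hearts. Bckdhb, the partner subunit, had 0.01 ± 0.12 and 0.04 ± 0.12 (limma, adjusted p = 0.978 and 0.825).

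Dbt (chr3:116513070-116549981, ENSMUSG00000000340) encodes the transacylase core of that complex. It had 18.8, 17.4, 14.8, 13.7 and 19.2 FPKM in AngII+QDG hearts, 14.4, 16.7, 12.5, 13.7 and 11.9 in AngII hearts and 9.86, 9.06, 11.1, 12.4 and 11.2 in Control hearts. The AngII+QDG libraries all lay above the Control libraries, and the AngII libraries lay between and overlapped both. Its log2 change against Control was 0.60 ± 0.13 in AngII+QDG hearts (limma, adjusted p = 0.007) and 0.34 ± 0.13 in AngII hearts (limma, adjusted p = 0.085). The ratio of Dbt to Bckdha, chosen after their values were seen, was 0.097 to 0.149 in AngII+QDG hearts, 0.085 to 0.132 in AngII hearts and 0.052 to 0.084 in Control hearts. Both treated groups lay above Control. The ratio of Pdha1 to Bckdha, the decarboxylating subunits of both complexes and likewise chosen afterwards, was 2.08 to 3.07, 1.90 to 2.91 and 1.00 to 1.54 in the same order of groups. The main transcripts differ in length, at 3301 nt for Dbt, 2848 nt for Pdha1 and 1899 nt for Bckdha. The short-against-long balance was lower in both treated groups than in Control hearts, so long transcripts carried relatively more FPKM there. Its part in these ratios was not tested.

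None of the member genes specific to leucine or isoleucine steps was called at the gene level in AngII against Control hearts. Ivd, isovaleryl-CoA dehydrogenase, had 0.34 ± 0.25 (limma, adjusted p = 0.356). Mccc1, the biotin subunit of methylcrotonyl-CoA carboxylase, had 0.54 ± 0.23 (limma, adjusted p = 0.123), and its partner Mccc2 had 0.20 ± 0.15 (limma, adjusted p = 0.369). Bcat2, the mitochondrial transaminase of the first step, had -0.59 ± 0.30 (limma, adjusted p = 0.188), with AngII 2 at 16.1 FPKM and the other 4 AngII libraries at 53.1 to 70.5 FPKM. Auh, methylglutaconyl-CoA hydratase of the leucine branch, had -0.05 ± 0.12 (limma, adjusted p = 0.81). Pcca and Pccb, the propionyl-CoA carboxylase subunits through which valine and isoleucine carbon reaches the cycle, had 0.15 and 0.14 (limma, adjusted p = 0.516 and 0.53).

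**Figure D2:**
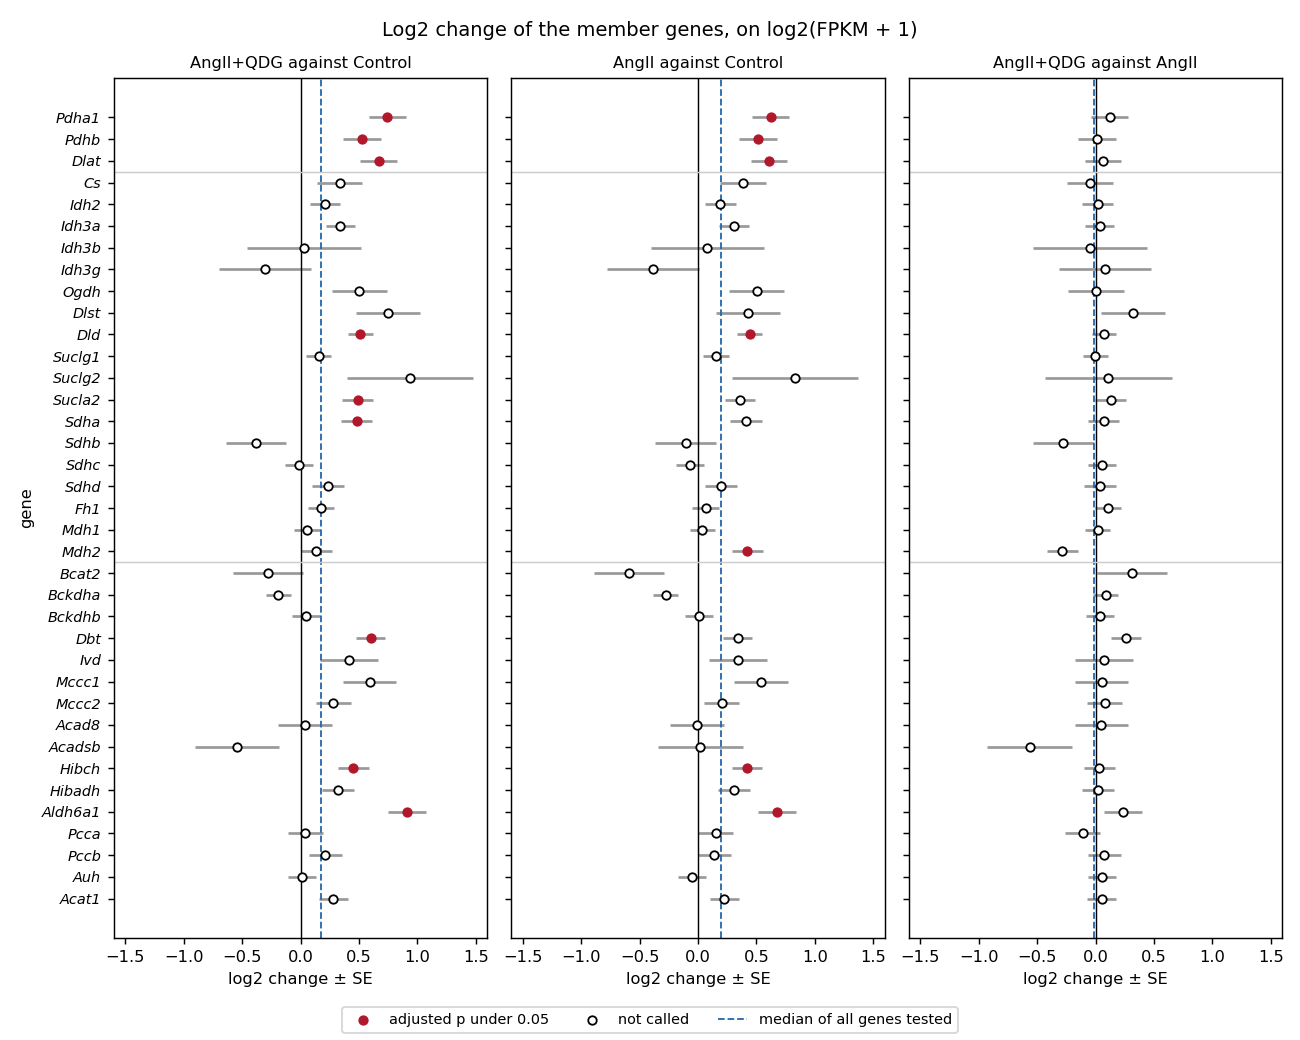
Log2 change and SE of each of the 37 genes (rows, grouped as pyruvate dehydrogenase, TCA cycle and branched-chain catabolism) in 3 comparisons. Filled points had a limma adjusted p under 0.05: 9 in AngII+QDG against Control, 7 in AngII against Control and 0 in AngII+QDG against AngII. The dashed lines mark the median of all genes tested, 0.18, 0.20 and -0.02.

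Leaving out 1 library at a time moved the count of called genes in AngII against Control hearts from 7 to between 0 and 14. It was 0 without AngII 2, 2 without AngII 4 or AngII 5, 3 without Control 2, 14 without Control 4, 5 without Control 5 or AngII+QDG 1, and 4 in the other 8 fits. The 7 calls were not equally firm. Of the 15 fits, Pdhb lost its call in 14, Mdh2 and Hibch in 13 each, and Dlat in 5. Pdha1 lost it in 3, and Dld and Aldh6a1 in 1 each. Without both Control 3 and Control 5, none of the 37 genes was called, and the log2 change of Pdha1 was 0.45 in place of 0.62. With this balance of short and long transcripts in the fit, no gene of the whole table was called in either comparison with Control (limma, 649 genes at an unadjusted p under 0.05 in AngII against Control), and the pyruvate dehydrogenase median was 0.09. Since the balance of AngII and Control libraries did not overlap, the group and the balance cannot be told apart.

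Transcript length moved with the changes across the whole table. Among genes whose main transcript was under 1500 nt, 3.42% were called higher in AngII hearts, against 8.63% from 1500 to under 3000 nt and 20.3% at 3000 nt or more. In AngII+QDG hearts these shares were 5.33%, 11.1% and 27.6%. The 37 genes fell into these classes as 5, 22 and 10. Their median log2 changes in AngII against Control hearts were 0.01, 0.25 and 0.34, beside -0.05, 0.19 and 0.34 for all genes of the same class. Of the 5, 22 and 10 genes, 1, 4 and 2 were called higher in AngII hearts. The call below 1500 nt was Mdh2, at 1456 nt and at the threshold, while Pdhb, at 1513 nt, lay at the short end of the middle class and Dlat, at 4035 nt, in the long class.

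**Figure D3:**
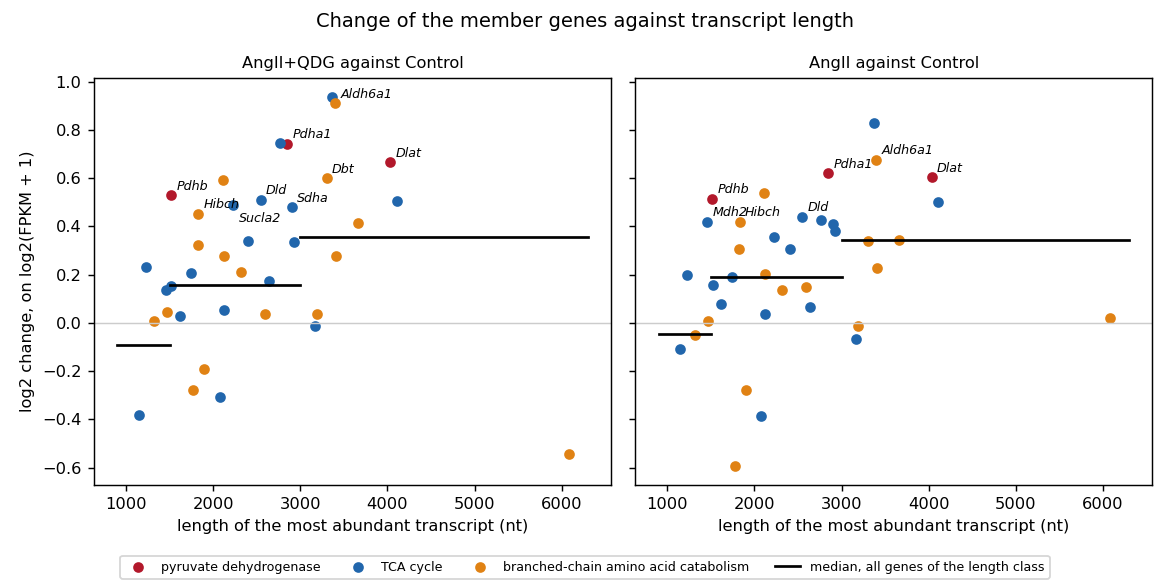
Log2 change of the 37 genes (points, coloured by pathway) against the length of their most abundant transcript in nt, for AngII+QDG against Control and AngII against Control. Black lines give the median of all genes tested in 3 length classes (in AngII against Control -0.05, 0.19 and 0.34), and called genes are named. Pdha1, Dlat and Pdhb lie above the line of their class in both panels.

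Adding QDG to AngII called none of the 37 genes, and none of the 12262 genes tested (limma, 0 genes called, 0%; 579 genes at an unadjusted p under 0.05). Limma with voom on recovered fragments called 1 gene of the whole table. Of the 37 genes, 1, Mdh2, had an unadjusted p under 0.05, and for none did the ranges of AngII+QDG and AngII libraries stay apart, where 0.603% of all genes lay apart as higher and 0.799% as lower. The median log2 change was 0.03 over the TCA cycle genes, 0.06 over the pyruvate dehydrogenase genes and 0.06 over the branched-chain genes, beside -0.02 over all genes tested. With 12 residual degrees of freedom, the 95% interval reached 0.23 to 1.18 to each side of the log2 change, with a median of 0.31, and 23 of the 37 intervals lay wholly within 0.5 of 0. The limma p-values rest on more degrees of freedom, so these intervals are wider than those tests imply. That of Mdh2 ran from -0.57 to 0.005 although its unadjusted limma p was under 0.05. For Pdha1 the interval was -0.22 to 0.46, for Dld -0.16 to 0.30, for Cs -0.47 to 0.38 and for Bckdha -0.15 to 0.32. Larger differences were possible for Dbt (-0.01 to 0.54), Aldh6a1 (-0.12 to 0.59) and Suclg2 (-1.07 to 1.29). Acadsb, short/branched-chain acyl-CoA dehydrogenase of isoleucine, had the most negative value, -0.56 ± 0.36 (limma, adjusted p = 0.998), with 4.33 to 12.9 FPKM in AngII+QDG and 8.20 to 20.05 FPKM in AngII hearts. This sum includes a transcript not annotated as coding. Protein-coding transcripts carried a median of 83.6% of Acadsb FPKM in AngII+QDG hearts and 66.7% in AngII hearts.

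In AngII+QDG against Control hearts, which share the Control libraries with the comparison above, 9 of the 37 genes rose and none fell. They were Pdha1, Pdhb, Dlat, Dld, Sucla2, Sdha, Dbt, Hibch and Aldh6a1. Of all genes tested, 19.4% were called, 16.1% higher and 3.31% lower in AngII+QDG hearts. The counts were 3 of 18 TCA cycle genes, 3 of the 3 pyruvate dehydrogenase genes in the set and 3 of 16 branched-chain genes. The medians were 0.22, 0.67 and 0.25, beside 0.18 over all genes tested, and after median scaling -0.04, 0.41 and -0.02, beside -0.09. The ranges of AngII+QDG and Control libraries did not overlap for 4 of the 37 genes, Dld, Pdha1, Dbt and Aldh6a1, all higher, where 12.8% of all genes tested lay apart as higher and 1.72% as lower. Dld, Pdha1, Dlat, Dbt and Aldh6a1 were called in all 15 fits that left out 1 library. The count of called genes was 5 without AngII+QDG 1, 15 without Control 4 and 7 without both Control 3 and Control 5.

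Sucla2 (chr14:73525319-73596142, ENSMUSG00000022110) encodes the ATP-forming subunit of succinyl-CoA ligase. It had 260.4, 231, 222, 194 and 251 FPKM in AngII+QDG hearts, 189, 239, 196, 207 and 226 in AngII hearts and 157, 148, 195, 207 and 127 in Control hearts. AngII+QDG 4 was the lowest AngII+QDG library and Control 4 the highest Control library, and the groups overlapped. The log2 change against Control was 0.49 ± 0.13 in AngII+QDG hearts (limma, adjusted p = 0.02) and 0.36 ± 0.13 in AngII hearts (limma, adjusted p = 0.082). Suclg1, the subunit common to both forms of the enzyme, had 0.15 ± 0.11 in AngII+QDG hearts (limma, adjusted p = 0.346). Suclg2, the GTP-forming subunit, ran from 22.7 to 48.2 FPKM in AngII+QDG hearts, 20.04 to 43.2 in AngII hearts and 2.80 to 47.7 in Control hearts, and its change of 0.94 ± 0.54 was not called (limma, adjusted p = 0.242).

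Sdha (chr13:74322254-74350280, ENSMUSG00000021577) had 455, 458, 454, 386 and 422 FPKM in AngII+QDG hearts, 416, 471, 398, 393 and 397 in AngII hearts and 304, 309, 334, 425 and 219 in Control hearts. Control 4 was the one Control library within the treated range. The log2 change was 0.48 ± 0.13 in AngII+QDG against Control hearts (limma, adjusted p = 0.024). The other 3 subunits of succinate dehydrogenase, the enzyme that is also complex II of the respiratory chain, were not called: Sdhb had -0.38 ± 0.26, Sdhc -0.01 ± 0.12 and Sdhd 0.23 ± 0.14 (limma, adjusted p = 0.32, 0.947 and 0.252). The main transcript of Sdha is 2900 nt long, and those of Sdhb, Sdhc and Sdhd are 1142, 3171 and 1231 nt long. The Sdhb sum includes transcripts not annotated as coding. Its protein-coding share had a median of 51.6% in AngII+QDG hearts, 89.8% in AngII hearts and 89.5% in Control hearts. The ranges overlapped, at 46.5 to 93.9%, 65.2 to 92.7% and 67.2 to 93.2%.

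**Figure D4:**
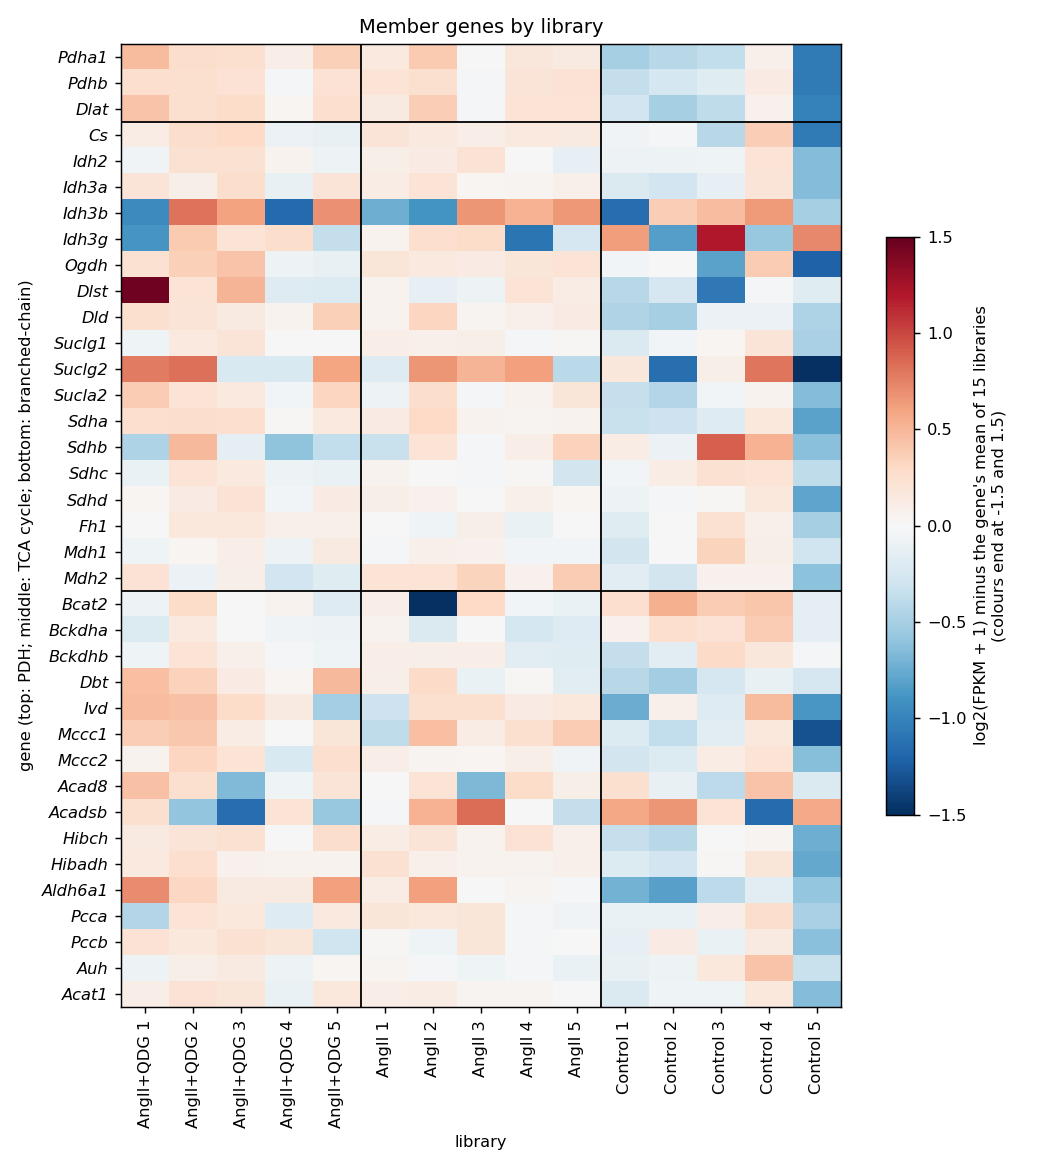
Log2(FPKM + 1) of each gene (rows) in each library (columns) minus the gene's mean over 15 libraries, with pyruvate dehydrogenase at the top, TCA cycle in the middle and branched-chain catabolism at the bottom, and colours ending at -1.5 and 1.5. The Control 5 column is blue in most rows (lowest of 15 libraries for 26 of 37 genes), and Idh3b, Idh3g, Suclg2 and Acadsb change from library to library within every group.

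Control hearts varied most. The median coefficient of variation of the 37 genes was 11.2% in AngII+QDG hearts, 8.68% in AngII hearts and 22.1% in Control hearts, and Control had the largest of the 3 for 30 genes. Over all genes tested these medians were 20.3%, 20.5% and 31.0%. Control 4 was the highest Control library for 29 genes and Control 5 the lowest for 28. Idh3b, Idh3g, Suclg2 and Acadsb had a coefficient above 30% in all 3 groups. Idh3b and Idh3g encode subunits of the NAD-dependent isocitrate dehydrogenase. Every group held libraries with Idh3b at 28.9 to 46.7 FPKM and libraries with it at 85.7 to 117 FPKM, and none between.

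The division of FPKM among transcript models also differed between libraries, and its part in this spread was not tested. Idh3b-201 carried 93.0 to 98.4% of Idh3b in every library, and Suclg2 had 1 transcript. The 37 genes had 107 transcripts, of which 101 were listed in every file, and for 27 genes 1 transcript carried over 90% of the mean FPKM. Idh3a, the catalytic subunit of the NAD-dependent enzyme, was carried by Idh3a-201 in 12 libraries and by Idh3a-205 in AngII+QDG 2, AngII 4 and Control 2, where Idh3a-201 was at 3.53, 7.53 and 6.24 FPKM. The sum of its transcripts stayed within 182 to 235, 200 to 227 and 125 to 225 FPKM in AngII+QDG, AngII and Control hearts. Ogdh-204 carried Ogdh in every library except Control 5, where it was at 0.023 FPKM and Ogdh-201 at 132 FPKM. Sucla2-201 was at 0 in AngII 1 and at 13.95 to 159 FPKM elsewhere. Dlst, the succinyltransferase of the 2-oxoglutarate complex, was at 192 FPKM in AngII+QDG 1 and at 32.3 to 98.1 FPKM in the other 14 libraries, and Dlst-201 gave 188 of the 192.

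In 3 genes, Idh3g, Mccc1 and Acad8, the most abundant model was a retained-intron transcript, which is not annotated as coding. Protein-coding transcripts carried a median of 25.9% of Mccc1 FPKM in AngII+QDG hearts, 21.5% in AngII hearts and 6.27% in Control hearts. A fit over 28475 transcripts was added after seeing the data and made in 1 setting. In it Mccc1-201, the protein-coding model of Mccc1, rose in both comparisons with Control. The log2 change was 1.46 ± 0.34 in AngII hearts (limma, adjusted p = 0.041) and 1.78 ± 0.34 in AngII+QDG hearts (limma, adjusted p = 0.011). Its levels were 4.74 to 12.3 FPKM in AngII+QDG, 3.69 to 8.26 in AngII and 0.47 to 4.80 in Control hearts, where Control 4 reached both treated ranges. Of 98 member transcripts tested, 2 were called in AngII against Control (Dld-201 and Mccc1-201), 0 in AngII+QDG against AngII and 14 in AngII+QDG against Control, all higher, where 2.5%, 0.0105% and 6.91% of all transcripts were called. Idh3g-201, the protein-coding model of Idh3g, was above 1% of the gene's FPKM in AngII+QDG 2, Control 1, Control 2, Control 3 and Control 5.

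**Figure D5:**
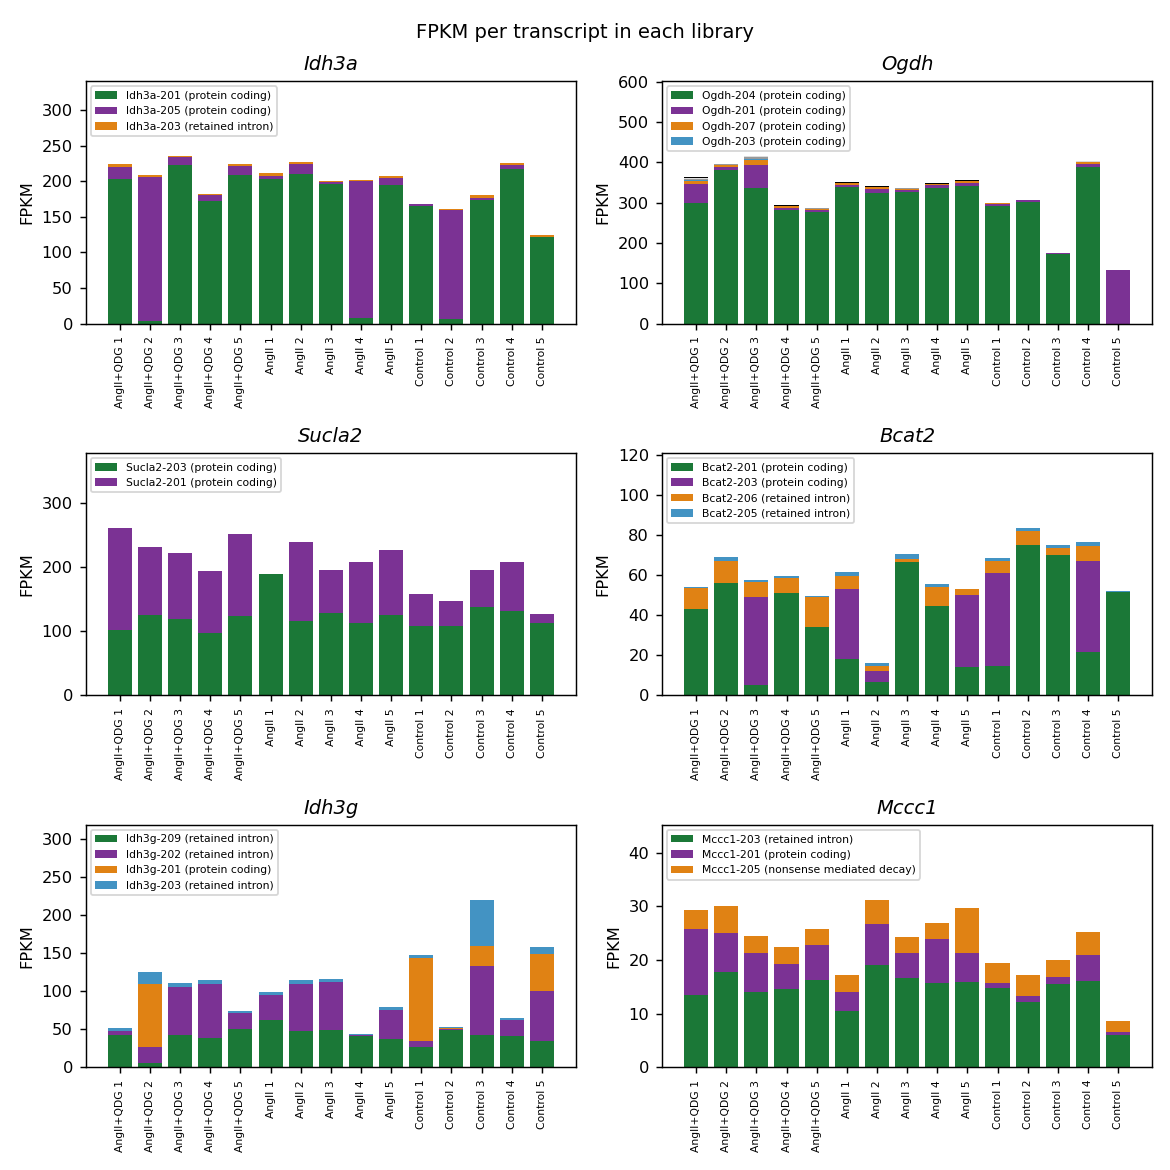
FPKM of each transcript of 6 genes (stacked bars) in each library, with AngII+QDG, AngII and Control from left to right and the transcript's annotated type in the legend. The model that carries Idh3a or Ogdh changes in single libraries (Ogdh-201 in place of Ogdh-204 in Control 5), and Bcat2 is at 16.1 FPKM in AngII 2.

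Regulators of pyruvate entry, from a list that holds 14 genes, gave 3 of 14 higher and 0 lower in each comparison with Control, beside 11.9% of all genes higher in AngII hearts and 16.1% higher in AngII+QDG hearts. The list also holds Pdhx, a further subunit of the pyruvate dehydrogenase complex, which was called in neither comparison. Pdk1 and Pdk4 encode kinases that inactivate the pyruvate dehydrogenase complex by phosphorylation. Pdk1 had 30.9, 28.3, 25.4, 26.2 and 26.8 FPKM in AngII+QDG hearts, 24.8, 28.03, 20.2, 23.5 and 22.7 in AngII hearts and 16.1, 12.4, 13.9, 18.99 and 9.65 in Control hearts, and both treated groups lay above Control. Its log2 change was 0.73 ± 0.15 in AngII hearts (limma, adjusted p = 0.014) and 0.94 ± 0.15 in AngII+QDG hearts (limma, adjusted p = 0.0023). Pdk4 had 79.7, 43.5, 36.9, 49.8 and 37.2 FPKM in AngII+QDG hearts, 38.8, 42.9, 32.5, 40.9 and 57.1 in AngII hearts and 15.3, 17.7, 18.6, 38.6 and 9.57 in Control hearts, where Control 4 reached the treated range. Its changes were 1.17 ± 0.29 (limma, adjusted p = 0.026) and 1.35 ± 0.29 (limma, adjusted p = 0.0082). Pdpr, the regulatory subunit of the phosphatase that reactivates the complex, had 1.69 and 2.09 (limma, adjusted p = 0.008 and 0.0015), at 7.999 to 18.2 FPKM in AngII+QDG hearts, 5.21 to 13.0 in AngII hearts and 0.653 to 3.58 in Control hearts. The kinase Pdk2 and the phosphatase Pdp1 were not called, at 0.16 and 0.15 in AngII hearts (limma, adjusted p = 0.583 and 0.627).

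Regulators and other steps of branched-chain catabolism gave 2 of 16 higher in AngII hearts and 1 of 16 higher in AngII+QDG hearts, against Control, and 0 lower, beside the same 11.9% and 16.1% of all genes. Mut, methylmalonyl-CoA mutase, which delivers valine and isoleucine carbon to the cycle as succinyl-CoA, had 25.2, 23.6, 22.3, 21.2 and 25.3 FPKM in AngII+QDG hearts, 19.8, 24.2, 18.04, 19.8 and 17.997 in AngII hearts and 12.2, 11.5, 14.3, 16.4 and 8.45 in Control hearts. No treated library was as low as a Control library, and the changes were 0.65 ± 0.14 in AngII hearts (limma, adjusted p = 0.019) and 0.88 ± 0.14 in AngII+QDG hearts (limma, adjusted p = 0.0028). The kinase Bckdk and the phosphatase Ppm1k, which switch the branched-chain ketoacid dehydrogenase complex off and on, were not called: Bckdk had 0.12 ± 0.16 and Ppm1k 0.05 ± 0.15 in AngII hearts (limma, adjusted p = 0.661 and 0.829). Slc7a5, a carrier for branched-chain amino acids, rose by 0.48 in AngII hearts at a low level of 1.38 ± 0.444 FPKM against 0.708 ± 0.322 in Control hearts (SD, n = 5 each; limma, adjusted p = 0.049).

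Among 18 further cycle enzymes and carriers, 2 (11.1%) rose in AngII hearts, beside 11.9% of all genes. They were Me1 (cytosolic malic enzyme) and Ogdhl (a relative of Ogdh), by 0.57 and 0.58 (limma, adjusted p = 0.028 and 0.049). In AngII+QDG hearts 1 of 18 rose (Me1) and 1 fell (the citrate carrier Slc25a1), beside 16.1% of all genes higher and 3.31% lower. Of 10 transcription regulators of mitochondrial genes, 3 rose in AngII hearts (Esrrb, Gabpa and Ppargc1b) and 4 in AngII+QDG hearts (these and Esrrg), beside 11.9% and 16.1% of all genes. The list is small and its share was not tested. Esrrb, an estrogen-related receptor, had 6.43, 6.49, 7.12, 5.38 and 5.36 FPKM in AngII+QDG hearts, 5.92, 7.21, 6.43, 6.75 and 7.24 in AngII hearts and 3.81, 3.53, 1.91, 2.80 and 2.28 in Control hearts, with both treated groups above Control (limma, 1.02 ± 0.14, adjusted p = 0.0038, and 0.91 ± 0.14, adjusted p = 0.0023). Esrrg was at 0 in 4 Control libraries and in AngII+QDG 4, so no fold is given.

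Neighbouring pathways were counted in the same fits. Of 19 fatty acid oxidation genes, 1 rose (Acadl) and 0 fell in AngII hearts, and 4 rose (Acadl, Acadm, Etfdh and Hadh) and 0 fell in AngII+QDG hearts, both against Control and beside 11.9% and 16.1% of all genes higher. Of 23 nuclear-encoded respiratory chain subunits, 1 rose (Ndufs1) and 3 fell (Cox4i1, Cox5b and Cox7a1) in AngII hearts, with a median log2 change of -0.14, beside 0.20 for all genes. In AngII+QDG hearts 1 rose (Ndufs1) and 4 fell (Cox4i1, Cox5b, Cox7a1 and Uqcrc1), with a median of -0.23 beside 0.18. Of all genes, 1.48% and 3.31% were called lower in these comparisons. Over all genes with a main transcript under 1500 nt, the medians were -0.05 and -0.09. The transcript lengths of these subunits were not compared, and no gene was called with the balance of short and long transcripts in the fit. Cox5b, a subunit of cytochrome c oxidase, averaged 665 ± 43.01 FPKM in AngII and 941 ± 119 FPKM in Control hearts (SD, n = 5 each; limma, -0.49 ± 0.09, adjusted p = 0.01), and its libraries did not overlap. None of these lists had a called gene in AngII+QDG against AngII hearts.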

How the data were processed

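Heart RNA was depleted of rRNA and sequenced, per the labels' protocols. Each library came as a deposited list of FPKM values by transcript. That they are FPKM was read from the values multiplied by transcript length, whose sums lay close together across libraries. The submitters' processing notes name GRCm38 and limma, while the aligner and quantifier are not given in the sources. Control and AngII lists held 31685 transcripts and AngII+QDG lists held 31734, with 29996 in both. GENCODE M21 gave gene names to 24756 of 24789 Ensembl transcripts, which were summed to 12386 genes. Another 8634 assembled transcripts carry no gene name and could hold reads of these genes. Reads shared with paralogs, pseudogenes or antisense genes are uncertain, since strand use is not stated. No pair of libraries was identical (0 pairs). Between 97.0 and 97.2% of values were whole multiples of a library step within 0.1. The design text gives 5 mice per group, and p-values measure the spread between these samples.

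Tested were 12262 genes that reached 0.5 FPKM in 5 or more libraries. They were fitted as log2(FPKM + 1) by limma (version 3.58.1, R version 4.3.3) with trend and robust options, 12 residual degrees of freedom and Benjamini-Hochberg adjustment over all genes at 0.05. Fold changes on this scale understate low genes. Plots and counts used matplotlib 3.10.9, pandas 2.3.3 and numpy 2.4.6 under Python 3.11.15. The steps were tested on simulated data, where log2 changes of 1 were recovered for 64 to 74% of changed genes and those of 2 for 91 to 98%. Of the unchanged genes, 7 to 12 were called. Smaller changes and a shift in the balance of short and long transcripts were not simulated. The members and all lists were chosen with earlier results of these data known. Any member could be named, and of other lists the called genes or the 3 with the smallest p. Pdhx, Pdk2, Pdp1, Bckdk and Ppm1k were chosen after their values were seen. Replicate numbers were not treated as pairing the samples in the main fit. The main transcript in place of the gene sum was an alternative chosen after seeing the data.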

Additional observations from a re-analysis of the deposited data

Results flagged for a closer look

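In 8 of 111 combinations of a gene and a group of 5 libraries, 1 library lay far from the other 4 (Dixon's test, critical value 0.71). Chance flags about 1 in 20 such groups. Dld was at 175.6 FPKM in AngII 2, against 143.5 to 151.9 FPKM in the other AngII libraries. Aldh6a1 was also highest in AngII 2, at 67.19 FPKM, against 42.63 to 47.0 FPKM. Sdhc was at 108.2 FPKM in AngII 5, against 129.6 to 136.1 FPKM. Pdhb was low in 1 library of each treated group, at 410.4 FPKM in AngII+QDG 4, against 484.8 to 496.2 FPKM, and at 414.1 FPKM in AngII 3, against 477.5 to 494.1 FPKM. Ivd was at 46.29 FPKM in AngII 1, against 63.19 to 68.68 FPKM. Hibadh was at 143.6 FPKM in AngII 1, against 126.5 to 129.3 FPKM. Pccb was at 39.91 FPKM in AngII+QDG 5, against 55.13 to 57.74 FPKM. None of the 8 was in Control 5, which was the lowest Control library for 28 genes.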

How the results depend on the processing

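The counts in comparisons with Control depended on the setting. The number of genes called in AngII against Control, 1635 as reported, was 819 with quantile normalization, 1074 with median scaling (363 higher and 711 lower), 317 with the 2 groups fitted alone, 516 with the replicate block, 97 without Control 3 and Control 5, and 0 with the length balance as a covariate. The number of the 37 genes called there, 7 as reported, was 1 with median scaling (Bckdha, lower), 4 with voom on recovered fragments, 1 with the main transcript, and 0 with 2 groups alone, the replicate block, the covariate, or without Control 3 and Control 5. The medians of the TCA cycle, pyruvate dehydrogenase and branched-chain genes were -0.0064, 0.347 and -0.0828 with median scaling and 0.0387, 0.0907 and 0.031 with the covariate. In AngII+QDG against AngII, 1 gene in all was called with a pseudocount of 0.1, with the covariate and with voom. In AngII+QDG against Control, genes called (2377 as reported) were 1444 with 2 groups alone, 1201 without Control 3 and Control 5, and 0 with the covariate, and of the 37 genes (9 as reported) 4 were called with median scaling (Bckdha lower), 5 with 2 groups alone and 0 with the covariate. The medians there were -0.0413, 0.4056 and -0.0163 with median scaling and 0.0048, 0.0852 and 0.0075 with the covariate. Mccc1 turned to -0.031 with the covariate, and Bcat2 in AngII+QDG against AngII to -0.052 without AngII 2 (up to 0.4638 with another library left out). Leaving out 1 library gave 292 to 2486 genes called and 0 to 14 of the 37 in AngII against Control, 0 to 1 gene in AngII+QDG against AngII, and 1454 to 3024 genes and 5 to 15 of the 37 in AngII+QDG against Control. Fewer samples enter these fits and the fits of 2 groups; otherwise the cause was not tested. Libraries of the same number deviated together with a correlation of -0.11 to 0.083, 0 of 15 pairs above 0.1, and 3 of 15 libraries correlated best with their own number. By this measure no pairing by number was seen, though with 5 libraries per group it cannot show that there was none. The replicate block kept 6 of the 9 calls in AngII+QDG against Control. The filter and the transcripts listed in all files changed no call of the 37 genes.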
